A study of Homo sapiens with 6 samples.

Results

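Cancer-testis antigens are proteins whose genes are active in the germ cells of the testis, are silent in most adult tissues and are switched on again in many tumours. Most of them lie on the X chromosome in families of near-identical copies, and DNA methylation of their promoters is known to keep them silent in somatic cells. The MAGE-A, MAGE-B and MAGE-C proteins bind E3 ubiquitin ligases, the SSX proteins are transcriptional repressors known from the gene fusions of synovial sarcoma, CTAG1 is the NY-ESO-1 antigen and CTAG2 its close relative LAGE-1, and PRAME is a leucine-rich repeat protein known as a repressor of retinoic acid receptor signalling. GAGE, PAGE and XAGE genes encode small acidic proteins of 1 superfamily. The families were chosen with earlier results of these data known. Within them the genes were taken by symbol alone. All rows named MAGEA, MAGEB, MAGEC, PAGE, GAGE, XAGE, SSX, CTAG or PRAME with their member number were used, which gave 65 of the 58024 genes listed. Of these, 64 lie on the X chromosome and 1, PRAME, on chromosome 22.

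The levels came from RNA-Seq of C4-2B cells, a bone-metastatic subline of the LNCaP human prostate cancer line, with 3 libraries of parental cells and 3 libraries of enzalutamide resistant cells. Enzalutamide is an antiandrogen drug. The resistant cells had been selected in rising enzalutamide, from 1 to 20 µM over 6 months or longer, and then kept in 5 µM, and the cells that survived were pooled, so that the libraries describe 1 resistant line and not several. The parental cells were passaged alongside in dimethyl sulfoxide, given as 1% in the series description while the methods state a lower ceiling, and the protocol names 10 µM enzalutamide at RNA extraction for both kinds of cells in 1 sentence, and does not say whether the parental cells were exposed. No label says that the libraries of a group came from separate cultures, and p values therefore measure the spread between these libraries. The values were taken as FPKM (fragments scaled to transcript length and to library depth), a unit that was inferred. Being per length, they may be compared between genes, though less surely where copies share sequence.

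All 8 luminal prostate markers stood above 1 FPKM in both kinds of cells, with KLK3 (prostate-specific antigen) falling from 2556 ± 274 to 44 ± 2.58 FPKM (SD, n = 3 each). Depth, estimated from the most frequent low value, scaled by length, of genes with only 1 transcript, ranged from 13700000 to 20300000 reads, and 1 read on a transcript of 1000 bases was worth between 0.0616 and 0.0909 FPKM. The germ cell markers DDX4, DAZL, SYCP3 and PRM1 summed to between 0.105 and 0.274 FPKM in the parental and between 0.061 and 0.513 FPKM across the resistant libraries, with DAZL and PRM1 at 0 throughout. The fibroblast markers COL1A1, COL3A1, DCN and LUM summed to between 6.65 and 8.92 FPKM in the parental and between 8.18 and 14.7 FPKM across the resistant libraries. Of these, DCN was at 0 in all parental libraries and at 3.63, 3.78 and 4.35 FPKM in the resistant ones, and LUM was also higher in all resistant libraries. COL1A1, the most abundant in parental cells, was at 6.39, 4.98 and 8.74 FPKM and then at 2.86, 3.47 and 6.83 FPKM, and COL3A1 overlapped between the groups. The part of these markers in the results was not tested. The 3 immune and 2 endothelial markers averaged below 1 FPKM in both groups.

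Of the 65 genes, 34 were listed at 0 in all 6 libraries, 13 were above 0 with a mean below 0.1 FPKM, and 18 reached a mean of 0.1 FPKM and were tested. The test was limma on log2(FPKM + 0.1) over all 24468 genes with such a mean, and a gene was called when its p, two-sided and adjusted after Benjamini and Hochberg, was under 0.05. In resistant cells 5 of the 18 were higher (MAGEA4, SSX3, SSX9, CTAG2 and MAGEA11) and 8 were lower (PAGE1, GAGE2A, GAGE1, MAGEA10, MAGEA8, PRAME, MAGEA1 and MAGEA12). Over all genes tested, 22.1% were called higher and 22.3% lower. The groups were without overlap in 14 of the 18 genes, and in 54.8% of all genes tested. The median log2 fold change of the 18 was −0.39, and −0.05 over all genes tested. A change of at least 4 log2 units was fitted for 6 of the genes called, SSX9 included, a size that 4.27% of all genes tested reached. A call with a rise of at least 7 log2 units was made for 2 of them, MAGEA4 and SSX3, and for 0.331% of all genes tested. The 18 passed a filter that a gene high in 1 group alone can pass, so these counts describe the tested genes and not the 65. The sizes of 4 and 7 log2 units were not planned as cuts, and the shares beside them are a description only. With 1 FPKM added in place of 0.1 FPKM, MAGEA4 was at 6.65, SSX3 at 4.86, CTAG2 at 3.86, PAGE1 at −4.80 and GAGE2A at −2.67.

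**Figure D1:**
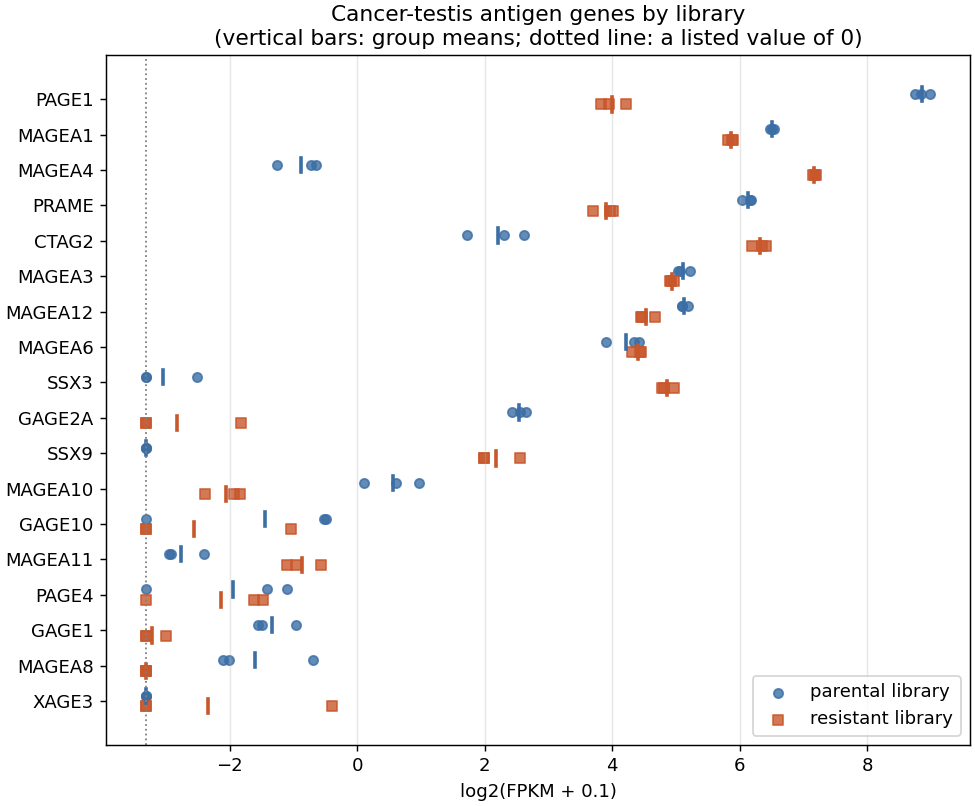
FPKM of the 18 tested genes in each library on a log2 scale after adding 0.1 FPKM, with parental libraries as circles, resistant libraries as squares, and group means as vertical bars. PAGE1 is the highest gene of the parental libraries and MAGEA4 of the resistant libraries, while MAGEA3 and MAGEA6 sit close together in both.

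The highest level of the 65 genes in resistant cells was that of MAGEA4 (ENSG00000147381.11), a MAGE-A gene on the X chromosome at GRCh38 positions 151912495 to 151925171, on the plus strand. Its level was 0.505, 0.536 and 0.32 FPKM across the parental libraries and 145, 142 and 146 FPKM across the resistant libraries. The groups did not overlap and each held tightly together, with means of 0.454 ± 0.117 and 144 ± 1.85 FPKM (SD, n = 3 each). This is a log2 fold change of 8.05 (standard error, SE, 0.18, Benjamini-Hochberg adjusted p = 2.84e-06, limma), 6.65 when 1 FPKM was added in place of 0.1 FPKM, and 8.32 with 0.01 FPKM, where SSX3 had the larger value of 10.46. By this measure MAGEA4 ranked 22 among the 21925 genes tested that had a value above 0 in both groups. A lncRNA on the opposite strand within the gene, RP11-366F6.2, was at 0 in all parental libraries and at 5.61, 5.31 and 4.84 FPKM in the resistant ones. The methods name a stranded kit for the libraries. Whether the authors' quantification used strand is not given in the sources used here, so that reads of the pair cannot be told apart.

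Among the SSX genes, SSX3 (ENSG00000165584.15, X chromosome, 48346427 to 48356707, minus strand) was at 0.0757, 0 and 0 FPKM across the parental libraries and at 27.3, 27.9 and 31.3 FPKM across the resistant libraries. The parental level rests on 1 library and a few reads at most. The log2 fold change was 7.90 (SE 0.30, Benjamini-Hochberg adjusted p = 1.32e-05, limma), and it moved between 4.86 and 10.46 with 1 and 0.01 FPKM added, since the added value sets the parental level. SSX9, annotated in GENCODE v44 as the transcribed pseudogene SSX9P on the same strand of the same cluster, was listed at 0 in all parental libraries and at 3.87, 3.88 and 5.79 FPKM across the resistant libraries, with an adjusted p of 6.17e-05 in the same limma fit. No fold change is given for SSX9 because the parental group is at 0. Of the 50-base exon windows of SSX9, 66.0% occur once in the genome, 23.2% lie in SSX7 as well and 8.08% in SSX3. Part of the SSX9 value may thus come from reads of other SSX genes, which was not tested. Both genes were thus detected in all resistant libraries and in at most 1 parental library. Both SSX genes tested were thus higher, and the 11 SSX genes summed to 0.688, 0.126 and 0.0623 FPKM before and to 31.4, 31.8 and 37.2 FPKM in resistant cells. SSX1 fell short of the mean of 0.1 FPKM, with 0.203, 0.126 and 0.0623 FPKM across the parental libraries and 0, 0 and 0.058 FPKM across the resistant ones. SSX5 and SSX6 were above 0 in 1 and 2 libraries, at no more than 0.409 FPKM, and the other 6 SSX genes were listed at 0 throughout, 4 of them (SSX2, SSX2B, SSX4 and SSX4B) with few or no 50-base exon windows that occur once in the genome.

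CTAG2 (ENSG00000126890.13, X chromosome, 154651972 to 154653579, minus strand), the LAGE-1 antigen, was already expressed in the parental libraries at 4.83, 6.02 and 3.19 FPKM. In the resistant libraries it was at 81.4, 85.2 and 73 FPKM, 17.1 times the parental mean. Fitted on the log2 scale, CTAG2 rose by 4.11 (SE 0.23, Benjamini-Hochberg adjusted p = 4.67e-05, limma) and ranged from 3.86 to 4.31 over all alternatives. Its relatives CTAG1A and CTAG1B, the copies that encode NY-ESO-1, were listed at 0 in all libraries. The 3 genes share sequence, as 47.5% of the 50-base windows in the exons of CTAG2 lie in CTAG1A as well, and no window of CTAG1A or CTAG1B occurs only once in the genome.

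MAGEA11 (X chromosome, 149688228 to 149717268), known as a transcriptional coregulator, rose at a low level. It was at 0.0291, 0.0318 and 0.0879 FPKM across the parental libraries and at 0.366, 0.416 and 0.576 FPKM in the resistant ones. The groups did not overlap, and the parental values stand for a few reads at most. The log2 fold change was 1.89 (SE 0.42, Benjamini-Hochberg adjusted p = 0.0115, limma), and 0.47 with 1 FPKM added. MAGEA11 was not tested when a mean of 1 FPKM was required.

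**Figure D2:**
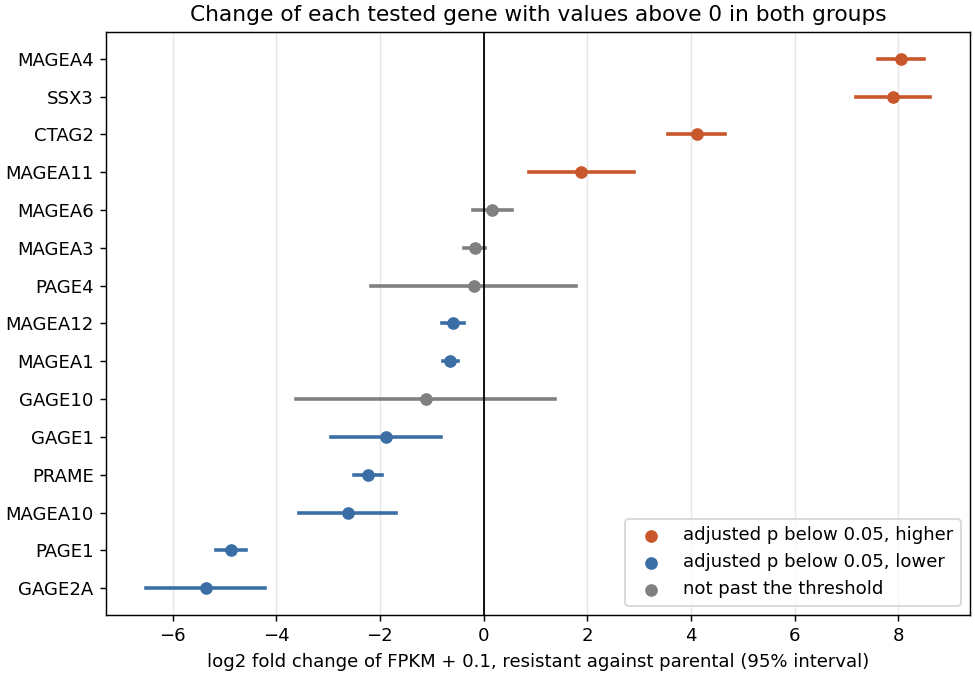
Log2 fold change of FPKM + 0.1 in resistant against parental cells for the 15 tested genes above 0 in both groups, with 95% intervals from limma. MAGEA4 and SSX3 stand near 8, GAGE2A and PAGE1 near −5, and the intervals of MAGEA6, MAGEA3, PAGE4 and GAGE10 include 0.

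PAGE1 (ENSG00000068985.4, X chromosome, 49687447 to 49695984, minus strand), a member of the prostate-associated PAGE genes, was the most abundant of the 65 genes in parental cells. Its level was 462, 431 and 509 FPKM across the parental libraries and 14, 18.4 and 15.3 FPKM across the resistant libraries. It fell to a level 29.4 times lower, from 467 ± 39 to 15.9 ± 2.28 FPKM (SD, n = 3 each). The log2 fold change was −4.88 (SE 0.12, Benjamini-Hochberg adjusted p = 3.76e-06, limma) and lay between −4.99 and −4.79 over all alternatives. Every 50-base window of its exons occurs once in the genome. PAGE4, the other PAGE gene above 0 and the member best known in normal and diseased prostate, was at 0.365, 0 and 0.275 FPKM in the parental and 0.225, 0 and 0.258 FPKM across the resistant libraries. Its interval of log2 fold change, from −2.17 to 1.79, is too wide to show a change or its absence.

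PRAME (ENSG00000185686.17, chromosome 22, 22547701 to 22559361, minus strand) was the only one of the 65 genes outside the X chromosome and fell as well. The parental libraries were at 65.5, 71.7 and 72.3 FPKM and the resistant libraries at 12.9, 16.1 and 15.6 FPKM. The groups lay far apart, with a parental mean 4.7 times the resistant mean. On the log2 scale PRAME changed by −2.23 (SE 0.11, Benjamini-Hochberg adjusted p = 3.06e-05, limma). Of the 20 other genes tested within 500 kb of PRAME, 12 were higher and none was lower, next to 22.1% and 22.3% of all genes tested. Their median log2 fold change was 1.86.

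Of the GAGE genes, GAGE2A and GAGE1 fell to near 0. GAGE2A (X chromosome, 49589496 to 49596824) was at 5.77, 5.27 and 6.14 FPKM across the parental libraries and at 0, 0.182 and 0 FPKM in the resistant ones. GAGE2A changed by −5.36 log2 units (SE 0.48, Benjamini-Hochberg adjusted p = 0.00028, limma), or −2.67 with 1 FPKM added. The table gives GAGE2A and GAGE1 the same locus, so their positions are those of GENCODE v44. GAGE1 was at 0.254, 0.415 and 0.24 FPKM across the parental libraries and at 0.0246, 0 and 0 FPKM across the resistant libraries (log2 fold change −1.88, SE 0.44, Benjamini-Hochberg adjusted p = 0.0139, limma), and its log2 fold change was −0.37 with 1 FPKM added. GAGE10 was at 0, 0.593 and 0.612 FPKM and at 0, 0 and 0.388 FPKM, and did not pass the threshold. The other 10 GAGE genes were at 0 in all libraries. The GAGE2A value cannot be assigned to that copy alone, because 78.3% of its 50-base windows lie in GAGE12F as well and 15.7% occur once in the genome.

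The MAGE-A genes did not move together. Of the 8 tested, 2 were higher and 4 lower, next to 22.1% and 22.3% of all genes tested. The whole family summed to 189, 173 and 182 FPKM across the parental libraries and to 277, 281 and 276 FPKM across the resistant libraries. Of the resistant sums, MAGEA4 alone held 145, 142 and 146 FPKM, against at most 0.536 FPKM of the parental sums. Apart from MAGEA4, no MAGE-A gene above 1 FPKM was called higher. MAGEA10, to which the table gives 1 locus with the pseudogene MAGEA5, was at 1.86, 1.43 and 0.978 FPKM in the parental and 0.179, 0.162 and 0.091 FPKM across the resistant libraries. The parental mean of MAGEA10 was 9.92 times the resistant mean, with a log2 fold change of −2.62 (SE 0.39, Benjamini-Hochberg adjusted p = 0.0022, limma), or −1.07 with 1 FPKM added. MAGEA1 (X chromosome, 153179284 to 153183880), the founding member of the family, was at 91.1, 89.1 and 92.4 FPKM and then at 59.2, 59.1 and 56.2 FPKM. Its decrease was small and narrow, at −0.64 on the log2 scale (SE 0.06, Benjamini-Hochberg adjusted p = 0.000369, limma), and in parental cells only PAGE1 was more abundant among the 65 genes. MAGEA12 fell by a similar amount, with 36.2, 34.2 and 34.1 FPKM against 21.9, 25.4 and 22 FPKM and a log2 fold change of −0.59 (SE 0.09, Benjamini-Hochberg adjusted p = 0.00269, limma). MAGEA8 was at 0.132, 0.519 and 0.148 FPKM across the parental libraries and listed at 0 in the resistant ones. Its adjusted p of 0.0441 (limma with Benjamini-Hochberg adjustment) did not hold, as it lay between 0.0657 and 0.0852 with each library but parental replicate 1 left out, and without parental replicate 1 the gene was not tested.

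MAGEA3 and MAGEA6, both known as partners of the ligase TRIM28, were the MAGE-A genes above 1 FPKM without a call. MAGEA3 was at 37.3, 32.5 and 33.3 FPKM in the parental and 30.1, 31.4 and 29.8 FPKM across the resistant libraries. The 2 groups of MAGEA3 did not overlap, but the log2 fold change of −0.17 had a 95% interval from −0.38 to 0.03 (limma with Benjamini-Hochberg adjustment, adjusted p = 0.148). MAGEA6 was at 21.4, 14.8 and 20.2 FPKM and at 19.8, 21.7 and 21.5 FPKM, with overlapping groups and a log2 fold change of 0.17 (interval −0.20 to 0.55, adjusted p = 0.399 in the same limma fit). For the listed values, and for the spread between these libraries only, the intervals leave out a change of 1 log2 unit. The 2 genes are hard to separate, since 54.8% of the 50-base windows in the exons of MAGEA3 lie in MAGEA6 as well. The intervals therefore do not bound a change of either gene alone. XAGE3 was above 0 in a single library, resistant replicate 2, at 0.662 FPKM.

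**Figure D3:**
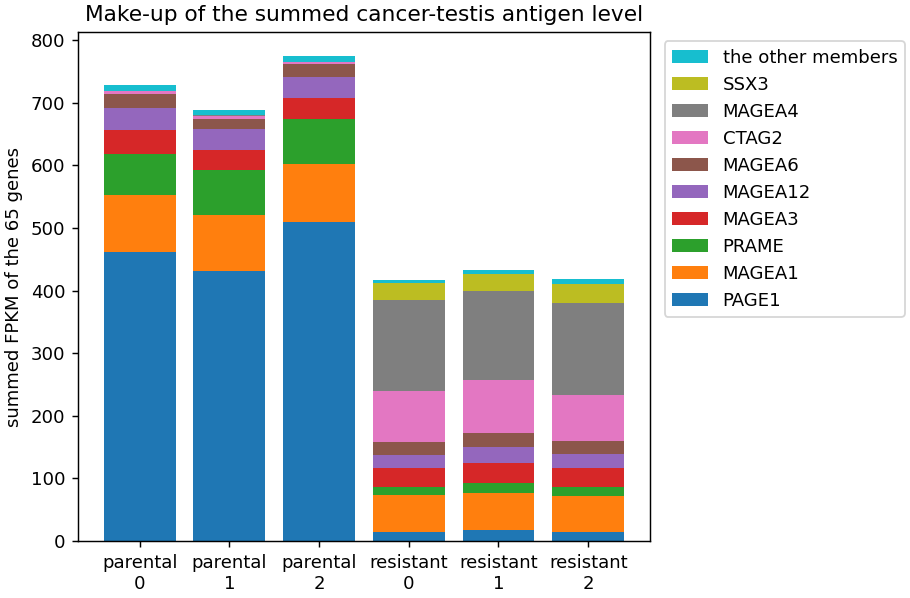
Summed FPKM of the 65 genes in each library, stacked by gene. The bars reach between 689 and 774 FPKM in the parental and between 417 and 432 FPKM across the resistant libraries, where MAGEA4 and CTAG2 take the room that PAGE1 has in the parental ones.

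The make-up of the summed level differed between the groups. The 65 genes summed to 728, 689 and 774 FPKM across the parental libraries and to 417, 432 and 418 FPKM across the resistant libraries. PAGE1 accounted for 63.4%, 62.6% and 65.8% of this sum in the parental libraries and for 3.35%, 4.26% and 3.65% in the resistant ones. MAGEA4 took 34.8%, 32.9% and 34.8% of the sum in the resistant libraries and at most 0.0779% in the parental libraries. CTAG2 took 19.5%, 19.7% and 17.5% in the resistant libraries, against at most 0.873% before. The share of MAGEA1 was alike in both, between 11.9% and 12.9% in the parental and between 13.4% and 14.2% in the resistant libraries. These sums and shares are given as a description, without a test.

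Because methylation of CpG pairs in the promoter is the known form of silencing for these genes, the 250 bases before each annotated start were read from RefSeq (GRCh38.p14), which held 71 such windows for 53 of the 65 genes. All 71 were identical to the GRCh38 sequence. The windows of PAGE1, which had the largest decrease among the genes with wholly unique exons, of PRAME, and of MAGEA4 and MAGEA11, which rose, are shown with CpG pairs in capitals, and MAGEA3 stands for the pair that did not pass the threshold. Where RefSeq gives several starts, the window with the most CpG pairs is printed, and which start was used in these cells was not examined. SSX3, SSX9, CTAG2, MAGEA10 and MAGEA1 are named only.
MAGEA4 (chrX:151918038-151918287, plus strand): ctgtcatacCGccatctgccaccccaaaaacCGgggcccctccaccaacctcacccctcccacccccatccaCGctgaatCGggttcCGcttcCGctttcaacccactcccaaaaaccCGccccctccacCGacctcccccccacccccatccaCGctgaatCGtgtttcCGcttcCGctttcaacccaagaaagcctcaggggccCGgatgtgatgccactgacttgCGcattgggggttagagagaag
MAGEA11 (chrX:149711810-149712059, plus strand): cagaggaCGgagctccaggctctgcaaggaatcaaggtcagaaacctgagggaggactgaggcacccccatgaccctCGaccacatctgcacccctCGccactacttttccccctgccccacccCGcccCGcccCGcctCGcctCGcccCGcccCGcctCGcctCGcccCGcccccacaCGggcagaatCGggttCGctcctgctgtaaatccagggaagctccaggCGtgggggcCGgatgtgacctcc
PAGE1 (chrX:49695985-49696234, minus strand): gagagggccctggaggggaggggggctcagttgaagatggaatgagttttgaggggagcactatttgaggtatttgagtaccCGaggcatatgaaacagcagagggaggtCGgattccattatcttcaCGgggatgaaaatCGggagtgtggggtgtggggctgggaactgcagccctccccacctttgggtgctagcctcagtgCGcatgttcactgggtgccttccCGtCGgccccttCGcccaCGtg
PRAME (chr22:22559266-22559515, minus strand): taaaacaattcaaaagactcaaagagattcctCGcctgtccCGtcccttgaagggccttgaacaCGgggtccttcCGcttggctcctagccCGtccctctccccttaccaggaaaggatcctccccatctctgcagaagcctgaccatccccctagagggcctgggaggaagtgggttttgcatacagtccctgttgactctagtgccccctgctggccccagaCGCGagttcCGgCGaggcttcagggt
MAGEA3 (chrX:152698544-152698793, plus strand): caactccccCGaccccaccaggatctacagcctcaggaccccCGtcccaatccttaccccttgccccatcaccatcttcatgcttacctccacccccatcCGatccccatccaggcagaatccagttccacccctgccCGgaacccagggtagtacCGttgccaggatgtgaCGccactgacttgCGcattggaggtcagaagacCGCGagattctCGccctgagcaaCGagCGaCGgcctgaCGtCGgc

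The window of MAGEA6 (chrX:152769690-152769939, minus strand) differed from that of MAGEA3 at 0 of 250 bases. The printed windows hold 14 CpG pairs in MAGEA4, 18 in MAGEA11, 9 in PAGE1, 9 in PRAME and 15 in MAGEA3. The median was 8 pairs over the 71 windows, with quartiles of 6 and 11, and 11 pairs over 35116 windows of all genes, with quartiles of 3 and 23. All 5 printed windows hold fewer pairs than the upper quartile of all windows. Against the 71 windows, MAGEA4, MAGEA11 and MAGEA3 lie above the upper quartile of 11, and PAGE1 and PRAME lie below it. These counts do not separate the genes that rose from those that fell. MAGEA12, which fell, had windows of 5 and 13 pairs, the latter also above that quartile. The windows of GAGE1, GAGE2A and MAGEA8, which fell too, held 8 pairs each. For MAGEA4 and PRAME the printed window is the one with the most pairs among several, which raises their counts in this comparison. The part of CpG pairs in the changes was not tested. Factors of the ETS family bind a GGAA core, and binding to MAGE-A promoters is known to be blocked when a CpG pair beside that core is methylated. The letters CCGGAA, searched on both strands (TTCCGG on the other), were found in 5 of the 71 windows, or 7.04%, against 14.5% of all windows and 12.3% of the 1236 windows on the X chromosome. Among tested genes the match was in the windows of MAGEA3, MAGEA6 and PRAME. Only these letters were searched. Other forms of a GGAA core beside a CpG pair, such as TTCCGC in the printed windows of MAGEA4 and PRAME, were not counted. Nor were the letters CCGGAT, which differ from the searched ones in the last base. They stand in the printed windows of MAGEA4 and MAGEA11, so the search does not show that the genes that rose lack such letters. A match of letters is a description of the sequence and not a site of binding.

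The values of 0 need to be read with the reads in mind. For each gene, the share of 50-base windows in its exons that occur once in the genome was counted, since reads were single-end and 50 bases long. Of the 34 genes at 0 in all libraries, 21 had fewer than 20% of such windows and 15 had none, whereas 2 of the 31 genes with a value above 0 were below 20%. CTAG1A, CTAG1B, MAGEA2, SSX2, SSX4, SSX4B, XAGE1A and XAGE1B were among those with no such window, and so were 7 of the GAGE genes, with windows that occur up to 12 times. How the authors treated reads with several places is not given in the sources used here, so a listed 0 does not show that these copies were silent. In contrast, 9 of the 34 had at least 90% of windows that occur once. These were MAGEB1, MAGEB2, MAGEB4, MAGEB18, MAGEC1, PAGE3, XAGE2, XAGE5 and SSX8, and for them the listed 0 is not limited by shared sequence.

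**Figure D4:**
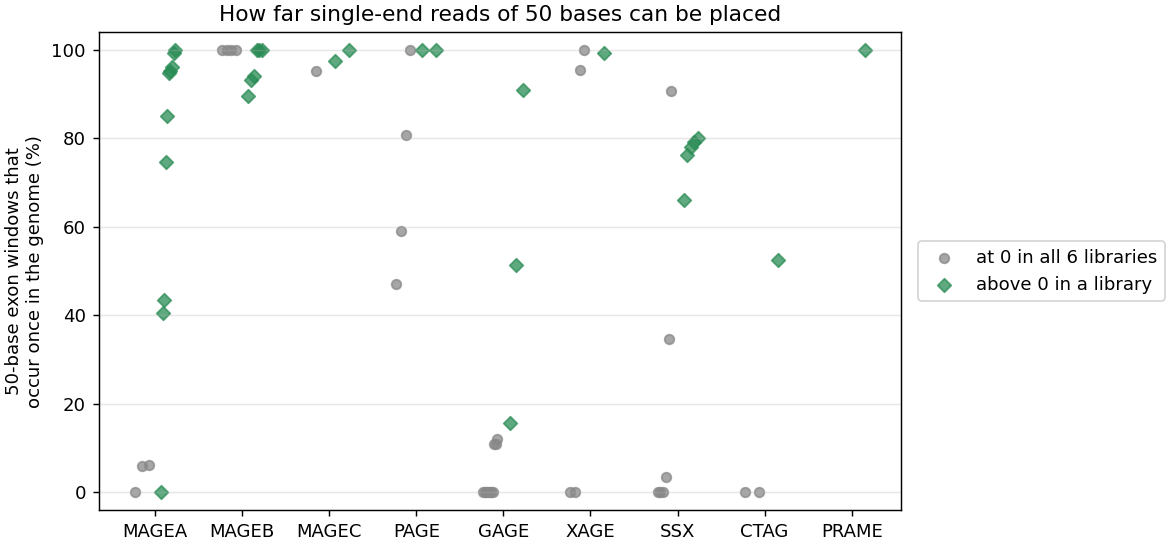
Percent of 50-base exon windows that occur once in the genome (both strands), 1 point a gene, by family, with genes at 0 in all 6 libraries as circles and genes above 0 in a library as diamonds. Points at 0% lie in the GAGE, SSX, XAGE, CTAG and MAGE-A families, while the MAGE-B and MAGE-C genes lie above 80%.

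The MAGE-B and MAGE-C genes were at the edge of detection. None of the 10 MAGE-B and 3 MAGE-C genes reached a mean of 0.1 FPKM. MAGEB17 was above 0 in 4 libraries, at 0.197, 0 and 0.122 FPKM in the parental and 0.0542, 0 and 0.0585 FPKM in the resistant ones. MAGEB3, MAGEB5, MAGEB6, MAGEB10 and MAGEB16 were each above 0 in 1 library, at no more than 0.0982 FPKM. MAGEC2 was at 0.0887, 0 and 0.0451 FPKM in the parental and 0.0361, 0 and 0 FPKM across the resistant libraries, and MAGEC3 was above 0 in 1 library, at 0.134 FPKM. In the MAGE-A family, MAGEA2B was at no more than 0.113 FPKM and MAGEA5, annotated as a pseudogene, at no more than 0.257 FPKM. Values of this size correspond to a few reads, and no direction can be read from them.

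The genes around these families were read for comparison. Of the 787 other X-linked genes tested, 19.1% were higher and 22.9% lower, with a median log2 fold change of −0.13, against 22.2% and 22.3% and a median of −0.05 on the other chromosomes. Close to SSX3, 4 of 22 other genes tested within 500 kb were higher and 5 lower. For CTAG2 the numbers were 7 higher and 7 lower of 32, and for PAGE1 1 higher and 3 lower of 8. The 22 genes around MAGEA1 had 3 higher and 6 lower and a median log2 fold change of −0.63, and the 15 around GAGE1 and GAGE2A had 2 higher and 5 lower with a median of −0.36. MAGEA8, MAGEA10, MAGEA11 and MAGEA12 had between 5 and 13 such genes, of which 2 were higher in each case and 1 to 3 lower. Around MAGEA4 only 4 other genes were tested, of which 1 was higher and 1 lower. These include RP11-366F6.2, the lncRNA within MAGEA4, whose reads cannot be told apart from those of MAGEA4 here. Within a single stretch of the X chromosome, MAGEA4 rose while its neighbour MAGEA10 fell.

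Genes related to these families were read from lists written by name. The type II MAGE genes, which unlike the antigens are active in many normal tissues, had 7 of 11 listed genes tested, of which 2 were higher and 2 lower, next to 22.1% and 22.3% of all genes tested, with a median log2 fold change of −0.29. NDN (necdin, a growth suppressor of neurons) fell from 23.8 ± 1.14 to 4.58 ± 0.369 FPKM and MAGEF1 from 74.3 ± 1.61 to 39.2 ± 3.04 FPKM (SD, n = 3 each), with log2 fold changes of −2.35 and −0.92. MAGEH1 was at 0.0427, 0 and 0 FPKM across the parental libraries and at 0.424, 1.24 and 0.777 FPKM in the resistant ones (Benjamini-Hochberg adjusted p = 0.00402, limma).

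Of 92 other cancer-testis genes in the table, 37 were at 0 throughout and 44 were tested. Of these, 15 were higher and 7 lower in resistant cells, against 22.1% and 22.3% of all genes tested, with a median log2 fold change of 0.09. The 3 with the smallest adjusted p all rose. DDX53, an X-linked RNA helicase gene, was at 0.125, 0.0763 and 0.0744 FPKM across the parental libraries and at 4.53, 6.25 and 4.64 FPKM in the resistant ones (log2 fold change 4.77, adjusted p = 6.93e-05, limma with Benjamini-Hochberg adjustment). TEX15, which is needed for meiosis and for the silencing of transposons in the male germ line, was at 0.116, 0.176 and 0.283 FPKM and then at 7.25, 7.21 and 9.17 FPKM (log2 fold change 4.81, adjusted p = 7.11e-05, same fit). MAEL, a factor of the piRNA pathway, was at 0.0619, 0 and 0 FPKM and then at 3.91, 2.96 and 3.47 FPKM (log2 fold change 4.91, adjusted p = 0.000134, same fit). Other germ line genes fell, of which TDRD1, also of the piRNA pathway, and the helicase gene DDX43 were chosen after their values were seen. TDRD1 went from 0.586 ± 0.0936 to 0.00903 ± 0.0156 FPKM (SD, n = 3 each, adjusted p = 0.00235, same limma fit with Benjamini-Hochberg adjustment). DDX43 went from 1.65 ± 0.758 to 0.259 ± 0.369 FPKM (SD, n = 3 each, adjusted p = 0.033, same limma fit with Benjamini-Hochberg adjustment). The germ cell markers given above were at or near 0 in the same libraries.

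Of 20 genes of DNA methylation and silencing, 19 were tested, of which 10 were higher and 1 was lower in resistant cells, where 22.1% and 22.3% of all genes tested were, with a median log2 fold change of 0.52. HDAC2, a histone deacetylase, rose from 60 ± 2.14 to 112 ± 1.22 FPKM, HELLS, a remodeller needed for DNA methylation, from 47.3 ± 6.2 to 116 ± 9.21 FPKM, and TET2, which oxidises methylated cytosine, from 4.39 ± 0.17 to 11.1 ± 0.784 FPKM (SD, n = 3 each). Their log2 fold changes were 0.90, 1.30 and 1.32. The number called lower was 0 under quantile normalization and without a variance trend, and with parental replicate 2, resistant replicate 0 or resistant replicate 1 left out. The maintenance methyltransferase DNMT1 had a log2 fold change of −0.01 and was not called (Benjamini-Hochberg adjusted p = 0.939, limma), a gene named after its value was seen. The list held genes that silence as well as genes that remove methylation, and the part of either in the antigens was not tested.

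The 18 genes listed as direct or indirect partners of MAGE, PRAME and SSX proteins were all tested. Of these, 5 were higher and 7 lower, beside 22.1% and 22.3% of all genes tested, with a median log2 fold change of −0.28. TRIM28, the ubiquitin ligase partner of MAGEA3, MAGEA6 and MAGEC2, rose by 1.69 on the log2 scale, with 570 ± 78.6 FPKM in parental and 1826 ± 132 FPKM in resistant cells (SD, n = 3 each), while MAGEA3 and MAGEA6 did not pass the threshold. RXRA, the retinoid X receptor that pairs with the retinoic acid receptors bound by PRAME, was lower at 8.24 ± 0.497 than at 40.3 ± 0.501 FPKM, by −2.28 on the log2 scale (SE 0.09, Benjamini-Hochberg adjusted p = 1.48e-05, limma).

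**Figure D5:**
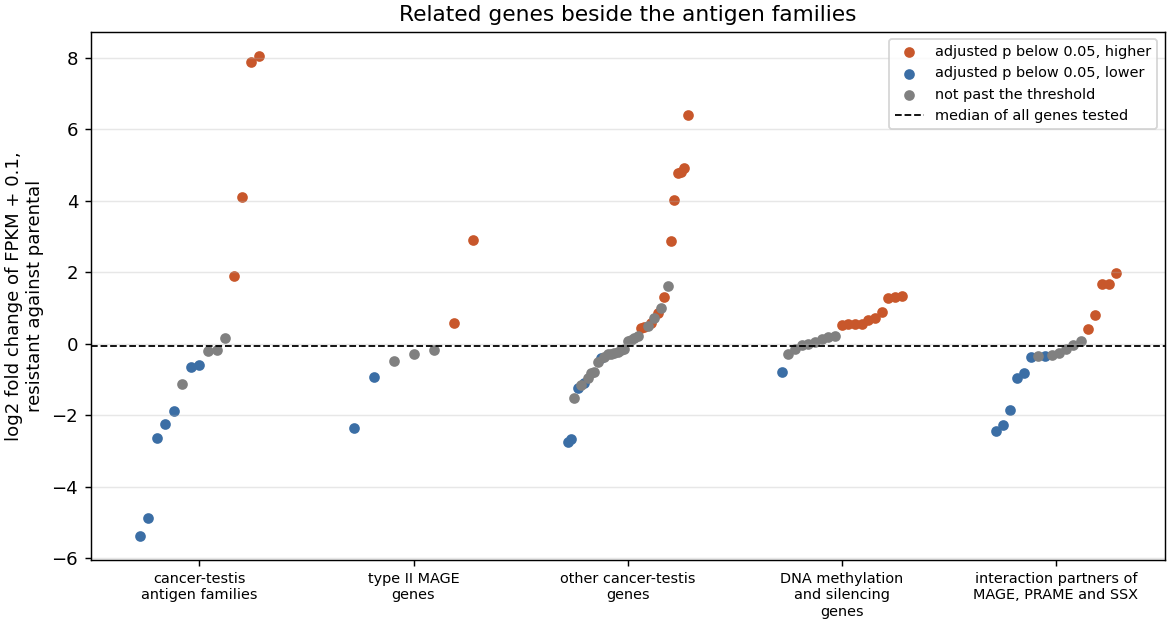
Log2 fold change of FPKM + 0.1 in resistant against parental cells for the tested genes of the antigen families and of 4 related lists, 1 point a gene, in rank order within each list and coloured by call. Genes at 0 in all libraries of a group are left out, and the dashed line is the median of all genes tested, −0.05. The antigen families and the other cancer-testis genes reach beyond 4 log2 units, and the methylation genes stay within 1.5.

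For a single gene with 3 libraries a group, the smallest p of the exact permutation test (two-sided) is 0.1, which is what MAGEA4 gave. As the libraries were taken from whole cultures, a rise in every cell and a rise in the share of expressing cells cannot be told apart.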

How the data were processed

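RNA-Seq values of 3 parental and 3 enzalutamide resistant C4-2B libraries were analysed. Per the methods, the authors used TrimGalore 0.4.3 on single-end reads of 50 bases, STAR 2.5.3 with GRCh38 and GENCODE v25, and Cufflinks 2.2.1 for differential expression. The submitters' processing notes name Trimmomatic 0.27, FastQC 0.10.1 and a mouse build, which does not match the human gene identifiers. The deposited table names no unit, and FPKM is inferred from the use of Cufflinks and the form of the values. It holds no read counts, so depth was estimated from the most frequent low value, scaled by length, of genes whose only transcript has 600 to 8000 bases, with fragments assumed to be 200 bases long, and no counting interval is given. The 6 libraries were checked and all differ.

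Groups were compared with limma 3.58.1 (R 4.3.3; lmFit, then eBayes with trend) on log2(FPKM + 0.1) for the 24468 genes whose mean reached 0.1 FPKM, two-sided, with Benjamini-Hochberg adjustment over all of them and a threshold of 0.05. In simulated data for 24468 genes, 200 genes were changed. Of the 113 changed by 2 log2 units, 51 were called, and 4 unchanged genes were called. All calls of changed genes had the right sign, which the run required in order to go on. In the real data 44.4% of genes were called, so the simulated share does not give the sensitivity of the reported test. Gene types, positions and exons came from GENCODE v44 (GRCh38), in which all 65 identifiers were found. All genes of the families that were tested are named, with the others above 0 by their range, and the 3 genes of each related list with the smallest adjusted p, of which 1 is not reported here. The families and lists were chosen with earlier results of these data known. Of the lists, 1, 3, 0 and 2 symbols were missing from the table. Alternatives covered the pseudocount, the filter, the scaling, the variance trend, a replicate block, each library left out and a minimum change. Python 3.11.15, numpy 2.4.6, pandas 2.3.3, scipy 1.17.1 and matplotlib 3.10.9 were used.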

Additional observations from a re-analysis of the deposited data

How the results depend on the processing

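The number of antigen genes called higher was 5, and 4 or 5 under all 16 alternatives. The number called lower was 8, and 7 with each library left out. With a mean of at least 1 FPKM required it was 5, because MAGEA8, MAGEA10 and GAGE1 (and, among the higher genes, MAGEA11) were then not tested. Among all genes, those called lower dropped to 3320 when a change of at least 1 log2 unit was required, which also removes MAGEA1 and MAGEA12. PAGE4, at −0.88 to 0.40 with each library left out and which did not pass the threshold, changed sign to 0.23 without parental replicate 0, 0.07 without parental replicate 2 and 0.40 without resistant replicate 1, and the cause was not tested. MAGEA8 also lost its call with 1 FPKM added (adjusted p = 0.114, limma with Benjamini-Hochberg adjustment; from 0.0115 to 0.114 over its alternatives). No other called antigen gene changed sign or lost its call with a library left out, another scaling or another pseudocount.

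In the related lists, 1 type II MAGE gene in place of 2 was called higher with a mean of at least 1 FPKM or a change of at least 1 log2 unit, and the 7 other cancer-testis genes called lower were 3 with that mean and 4 without parental replicate 0 or resistant replicate 2. The 5 partners called higher were 3 without a variance trend, without resistant replicate 1 or 2, or with 1 log2 unit required. With 1 log2 unit required, 3 silencing genes were higher, 1 type II MAGE gene and 3 partners were lower, and no silencing gene was lower.

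The replicate numbers of the titles did not pair the libraries, as the correlations of same-numbered libraries' deviations were 0.008, 0.017 and −0.003. With a replicate block, 5 antigen genes were called higher and 6 lower, and 4670 and 4793 of all genes. GAGE1 and MAGEA8 then had adjusted p values of 0.0534 and 0.0894 (limma with Benjamini-Hochberg adjustment). The table gives no counts, so genes below about 1 FPKM rest on few reads of unknown number, and their fold changes follow the value added before taking logs.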
